A study of Mus musculus with 10 samples.

Results

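Pou1f1, Pitx1, Lhx3, Isl1, Gata2, Nr5a1, Tbx19, Pax7 and Neurod1, 9 transcription factors of the pituitary cell lineages, were measured by single-cell RNA sequencing in 10 libraries of mouse pituitary. They were taken by name, and all 9 had a row in each of the 10 count tables, which shared 15270 genes. For each factor the number of UMIs (molecules counted by their unique tag) per 10000 UMIs and the share of barcodes (droplets taken as cells) with a UMI were computed per library and cell class. The cell classes were set by marker genes, none of which is among the 9, so that no barcode entered a class by its level of a factor. The marker lists themselves were chosen with earlier results of these data known.

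The hormone cells of the pituitary arise from a shared progenitor, and each lineage depends on its own set of transcription factors. The LIM homeodomain factor Lhx3 and the bicoid-related factor Pitx1 act early and widely in the gland, together with Isl1, another LIM homeodomain factor. The POU homeodomain factor Pou1f1 is needed for somatotropes, lactotropes and thyrotropes, the cells that make growth hormone (Gh), prolactin (Prl) and thyrotropin (Tshb). The zinc finger factor Gata2 works in thyrotropes and gonadotropes, and the nuclear receptor Nr5a1 in gonadotropes, which make Lhb and Fshb. The T-box factor Tbx19 drives Pomc in corticotropes and melanotropes, the bHLH factor Neurod1 takes part in corticotropes, and the paired homeodomain factor Pax7 sets melanotropes of the intermediate lobe apart from corticotropes.

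All mice were of the CD1 strain. WT mice at 8 weeks gave 3 female and 3 male libraries, of which replicate 1 of each sex was made on the 10x Genomics platform and replicates 2 and 3 by Drop-seq, in which droplets hold single cells and barcoded beads. The other Drop-seq libraries came from 8-week females with the mt/hGRF transgene (n = 1), in which a metallothionein promoter drives human growth hormone releasing factor, from a WT 13-week virgin female (n = 1) and from WT 13-week lactating females (n = 2). The study describes the 8-week Drop-seq libraries, the mt/hGRF one included, and lactating replicate 2 as pools of mice, although its text gives the number of 8-week mice in different ways. The tables analysed held no row for the human transgene, so that it could not be checked. The filters on UMIs, genes and mitochondrial share kept 23432 barcodes, between 978 and 5256 a library, with 960289 to 5080590 UMIs a library. The median was 534 to 784.5 UMIs a barcode by Drop-seq and 1028 and 1246 on the 10x Genomics platform. The mitochondrial limit removed 38.7% of the otherwise accepted barcodes of the mt/hGRF library and 6.95% to 20.4% of those of the others. The 10x Genomics libraries shared 6 barcodes, and no pair of Drop-seq libraries shared more than 1.

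In the mm10 build, Pou1f1 lies at chr16:65520511-65535005 and Pax7 at chr4:139737062-139833528. Chromosome 13 holds Pitx1 at chr13:55825051-55836192 and Isl1 at chr13:116298281-116309689. Chromosome 2 holds Lhx3 at chr2:26200212-26208289, Nr5a1 at chr2:38692656-38714542 and Neurod1 at chr2:79452521-79456751. Gata2 lies at chr6:88193891-88207032 and Tbx19 at chr1:165137855-165160773. All 9 are annotated as protein-coding.

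Some of the factors act on the promoters of the hormone genes counted in the same cells, and the 250 bases before the RefSeq start of 4 genes (GRCm38.p6, plus strand) are shown because they held one of the motifs searched for. Capitals mark TATNCAT, a POU motif of Pou1f1, in Prl and in Pou1f1 itself, AAGGTCA, a site of Nr5a1, in Lhb, and CATCTG, an E-box that Neurod1 can bind, in Pomc.
Prl, chr13:27057320-27057569: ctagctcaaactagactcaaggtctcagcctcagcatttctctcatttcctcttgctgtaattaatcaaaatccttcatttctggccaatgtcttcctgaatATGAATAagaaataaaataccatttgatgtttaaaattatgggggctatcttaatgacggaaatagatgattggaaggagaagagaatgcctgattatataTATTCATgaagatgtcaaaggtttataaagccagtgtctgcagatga
Pou1f1, chr16:65520262-65520511: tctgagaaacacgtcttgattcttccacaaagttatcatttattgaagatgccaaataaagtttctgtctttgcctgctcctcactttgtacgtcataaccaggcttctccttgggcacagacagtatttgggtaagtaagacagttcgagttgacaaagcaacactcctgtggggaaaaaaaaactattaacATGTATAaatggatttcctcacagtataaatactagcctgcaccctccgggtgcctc
Lhb, chr7:45420696-45420945: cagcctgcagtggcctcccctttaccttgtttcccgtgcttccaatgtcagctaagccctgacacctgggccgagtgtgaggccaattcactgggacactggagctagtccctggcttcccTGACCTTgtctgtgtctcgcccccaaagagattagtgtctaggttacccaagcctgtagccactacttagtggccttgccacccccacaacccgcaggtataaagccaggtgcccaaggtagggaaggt
Pomc, chr12:3954695-3954944: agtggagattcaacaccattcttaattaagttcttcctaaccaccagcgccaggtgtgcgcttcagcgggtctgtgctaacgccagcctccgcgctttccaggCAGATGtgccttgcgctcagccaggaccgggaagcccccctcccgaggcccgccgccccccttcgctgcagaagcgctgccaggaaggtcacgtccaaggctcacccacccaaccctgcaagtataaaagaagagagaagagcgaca
Both strands were searched. Prl held TATNCAT at 148 bases (minus strand) and 47 bases (plus strand) before its start, and Pou1f1 held it at 57 bases (minus strand). Lhb held AAGGTCA at 129 bases and Pomc held CATCTG at 147 bases, both on the minus strand. AAGGTCA was also present in Pomc at 63 bases and CATCTG in Prl at 7 bases, and these are not in capitals. Of 32851 promoters of the same length in the RefSeq table, 7.92% held TATNCAT, 4.08% AAGGTCA and 14.4% CATCTG. The Pitx1 motif TAATCC and the Gata2 motif AGATAA were searched for as well (6.25% and 9.99% of all promoters). Of the other hormone genes looked at, Tshb held the Gata2 motif at 58 bases (plus strand) and no other of these motifs, and Fshb, Cga and the second start of Pou1f1 held none. Among the other factors the E-box was found before the second start of Lhx3, the Pitx1 motif before Isl1 and the Gata2 motif before Tbx19, while the other start of Lhx3 and those of Gata2, Pax7 and Neurod1 held none. A match describes the letters only, and no match says only that these letters are not in these 250 bases.

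Cell classes were called Lac-like, Som-like, Gona-like and Mel-like when a barcode held UMIs of at least 2 distinct non-hormone markers of that class. Tshb-high barcodes held at least 3 Tshb UMIs, and Cort-like barcodes needed a corticotrope marker together with Pomc. In all, 8348 of the 23432 kept barcodes (35.6%) fell in a class, among them 2045 Lac-like, 1298 Som-like, 406 Gona-like, 1484 Mel-like, 240 Tshb-high and 115 Cort-like. The hormone genes were not markers of the Lac-like, Som-like, Gona-like and Mel-like gates, although the Tshb-high gate took barcodes out of these classes. With Tshb-high and Mult-like barcodes left aside, the hormones followed the names in most libraries. Pomc was highest in Mel-like and Fshb in Gona-like barcodes in 10 of 10 libraries. Prl was highest in Lac-like barcodes in 9 and in Stromal-like ones in 1, and Gh in Som-like barcodes in 8 and in Stromal-like ones in 2. Prl stood at 955 ± 486 UMIs per 10000 (SD, n = 10) in Lac-like barcodes, Gh at 1922 ± 713 in Som-like, Pomc at 1612 ± 528 in Mel-like and Fshb at 10.1 ± 11.5 in Gona-like barcodes. Free RNA was seen too: macrophage-like (MacPh-like) barcodes (n = 1046), which should make no pituitary hormone, had 226 ± 147 UMIs per 10000 of Gh and 135 ± 159 of Prl. Tshb-high barcodes held 2147 ± 852 UMIs per 10000 of Gh (n = 9), above the Som-like mean, and 1095 ± 937 of Prl, above the Lac-like mean, so this class was named for its Tshb UMIs and not as thyrotropes. The levels below are UMIs of a gene per 10000 UMIs of the class, not scaled to gene length, and are compared between classes and not between genes.

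Most of the factors differed between the hormone classes. UMIs were summed per library and class. The genes tested numbered 10053, and the shares of all genes called are over 10001, without genes used in the gates. Each class was set against the mean of the others with edgeR's quasi-likelihood test. The library was a block, and the Benjamini-Hochberg adjustment ran over all genes tested. Higher and lower are thus meant against a mean that includes the class where a factor is high, and not against each class in turn. Of the 45 comparisons of 9 factors in 5 classes, 29 passed an adjusted p of 0.05. In Lac-like barcodes 2 factors were higher and 4 lower, against 11.1% of all genes called (8.91% higher and 2.16% lower). In Som-like barcodes 1 was higher and 3 lower (all genes 9.93%, 7.89% higher and 2.04% lower), and in Gona-like barcodes 5 were higher and 2 lower (all genes 8.13%, 3.35% higher and 4.78% lower). In Mel-like barcodes 3 were higher and 5 lower (all genes 13.7%, 10.3% higher and 3.4% lower), and in Tshb-high barcodes 4 were higher (all genes 23.6%, 10% higher and 13.6% lower). Another scaling of the sums (RLE in place of TMM) moved the median log2 fold change of all genes from 0.15 to -0.04 in Lac-like, from 0.13 to 0.01 in Som-like, from -0.17 to 0.07 in Gona-like, from 0.11 to -0.02 in Mel-like and from -0.23 to -0.02 in Tshb-high barcodes. It changed the split of all called genes from 891 and 216 (higher and lower) to 400 and 462 in Lac-like, from 789 and 204 to 556 and 308 in Som-like, from 335 and 478 to 629 and 215 in Gona-like, from 1034 and 340 to 760 and 589 in Mel-like and from 1000 and 1357 to 1336 and 785 in Tshb-high barcodes. Under it every called factor kept its direction, and Lhx3 in Mel-like barcodes was the only one of the 29 to lose its call.

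**Figure D1:**
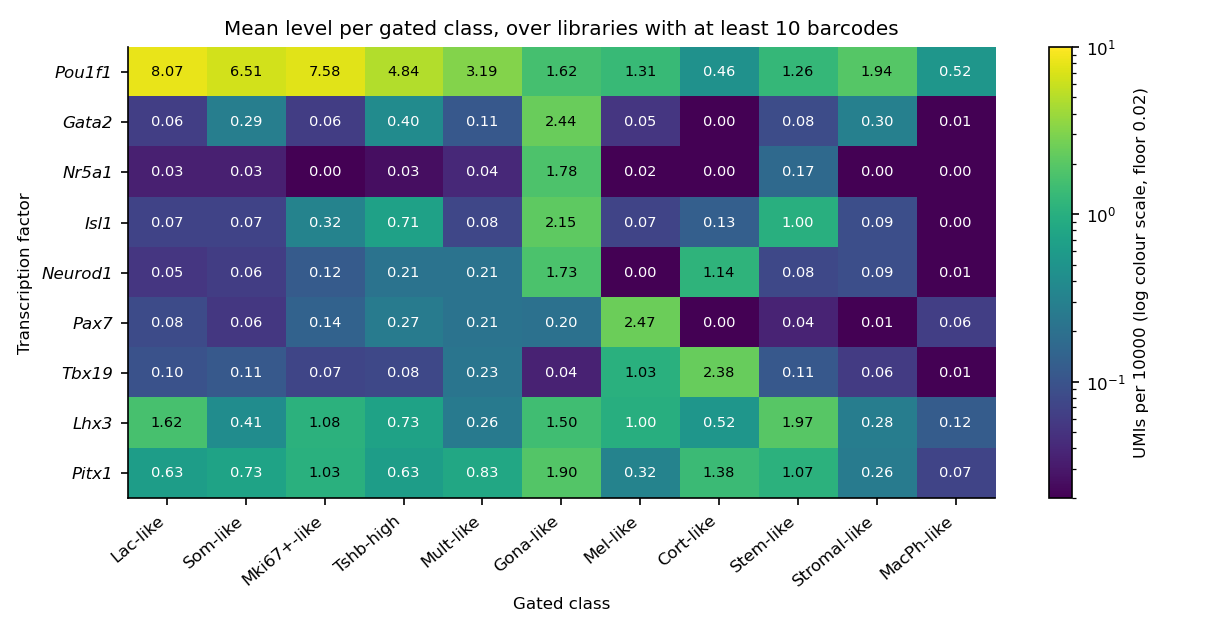
Mean UMIs per 10000 of each of the 9 factors (rows) in each gated cell class (columns), on a logarithmic colour scale, over the libraries with at least 10 barcodes of the class. Nr5a1, Gata2 and Isl1 were highest in Gona-like, Pax7 in Mel-like, Tbx19 in Cort-like and Pou1f1 in Lac-like barcodes.

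Pou1f1 was higher in Lac-like and Som-like barcodes than in the other hormone classes. In Lac-like barcodes it ran from 4.63 over 8.24 to 10.3 UMIs per 10000 (lowest, median and highest of 10 libraries). In Som-like barcodes it ran from 4.73 over 6.36 to 9.85, and in Mel-like barcodes from 0.364 over 1.50 to 2.78. Lac-like and Mel-like libraries did not overlap, and Lac-like barcodes were higher than Som-like ones of the same library in 8 of 10 libraries. Against the mean of the other classes Pou1f1 was higher in Lac-like (log2 fold change 1.53, SE 0.14, adjusted p = 1.66e-19) and Som-like barcodes (1.11, SE 0.14, adjusted p = 9.43e-11) and lower in Gona-like (-1.56, SE 0.21, adjusted p = 1.51e-09) and Mel-like ones (-1.56, SE 0.17, adjusted p = 6.35e-14). Lac-like against Som-like was not called (0.33, SE 0.17, adjusted p = 0.339, quasi-likelihood test). Leaving out the 5% of barcodes with the most UMIs brought this difference to 0.46 with an adjusted p of 0.0487.

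In the order of mean Pou1f1 levels, Lac-like barcodes stood at 8.07 ± 1.92 (n = 10), proliferating Mki67+-like barcodes at 7.58 ± 2.22 (n = 7), Som-like at 6.51 ± 1.55 (n = 10), Tshb-high at 4.84 ± 1.44 (n = 9) and multi-hormone (Mult-like) barcodes at 3.19 ± 1.05 (n = 9), as mean ± SD over n libraries. The steps between the leading 3 were smaller than the larger of their SDs, while those from Som-like to Tshb-high and on to Mult-like were larger. These levels count hormone RNA among the 10000 UMIs. Hormone genes made up 14.2% to 34.3% of the UMIs in Som-like libraries, 28.8% to 53.4% in Tshb-high and 43.8% to 55.2% in Mult-like ones. Mult-like barcodes fell in no other marker class and held a marker of their own, at least 20% hormone UMIs and at least 5 of 7 hormone genes. Counting hormone RNA lowers a level more where its share is higher. The steps from Som-like to Tshb-high and on to Mult-like barcodes are therefore given only for levels with hormone RNA counted. The size of its part in them was not tested. Stromal-like (1.94 ± 1.28, n = 10), Gona-like (1.62 ± 1.03, n = 10), Mel-like (1.31 ± 0.822, n = 10) and Stem-like barcodes (1.26 ± 0.799, n = 9) did not differ beyond their spread, and MacPh-like barcodes stood at 0.518 ± 0.368 (n = 10). Tshb-high barcodes were called higher than the mean of the other 4 hormone classes (0.48, SE 0.17, adjusted p = 0.0250, quasi-likelihood test), although Lac-like barcodes were above them in 9 of 9 libraries and Som-like ones in 8 of 9. That call was lost under 6 alternatives, among them the counts without the mt/hGRF library (0.37, adjusted p = 0.119) and without the virgin library (0.41, adjusted p = 0.0731). A UMI of Pou1f1 was found in 55.3 ± 9.20% of Lac-like and 52.5 ± 8.03% of Som-like barcodes, with median depths of 948.5 and 1029.5 UMIs, against 4.16 ± 2.55% of MacPh-like barcodes at 768 UMIs. Thinned to 300 UMIs a barcode, the shares were 23.0%, 19.99% and 1.43%.

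Lhx3 differed between the classes that share Pou1f1. In Lac-like barcodes it ran from 0.820 over 1.55 to 2.75 UMIs per 10000, and in Som-like barcodes from 0 over 0.367 to 0.856. Lac-like barcodes were higher than Som-like ones of the same library in 10 of 10 libraries, and the ranges overlapped only between 0.820 and 0.856. The log2 fold change of Lac-like against Som-like was 1.92, SE 0.23, adjusted p = 1.36e-11 (quasi-likelihood test). Gata2 was the other factor called in this comparison, lower in Lac-like barcodes (-1.59, SE 0.44, adjusted p = 0.00907), so that 2 of 9 factors were called against 6.3% of all genes (2.89% higher and 3.41% lower). The Gata2 call was lost when the gates needed 1 more marker (adjusted p = 0.0642).

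Lhx3 was highest in mean in Stem-like barcodes (1.97 ± 1.08, n = 9), followed by Lac-like (1.62 ± 0.608, n = 10), Gona-like (1.50 ± 0.646, n = 10), Mki67+-like (1.08 ± 0.246, n = 7) and Mel-like barcodes (0.995 ± 0.291, n = 10), and the steps between these neighbours lay within their SDs. Against the mean of the other hormone classes it was higher in Lac-like (1.11, SE 0.17, adjusted p = 8.60e-08) and lower in Som-like barcodes (-1.29, SE 0.22, adjusted p = 1.61e-06). Its higher call in Mel-like barcodes (0.60, SE 0.19, adjusted p = 0.0147) was lost under 7 alternatives, among them RLE scaling (adjusted p = 0.0722), DESeq2 (0.101), Drop-seq alone (0.0735) and the counts without WT 8wk female replicate 1 (0.0603) or lactating replicate 1 (0.0913). Lhx3 was found in 17.8 ± 6.04% of Lac-like and 1.16 ± 1.36% of MacPh-like barcodes.

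**Figure D2:**
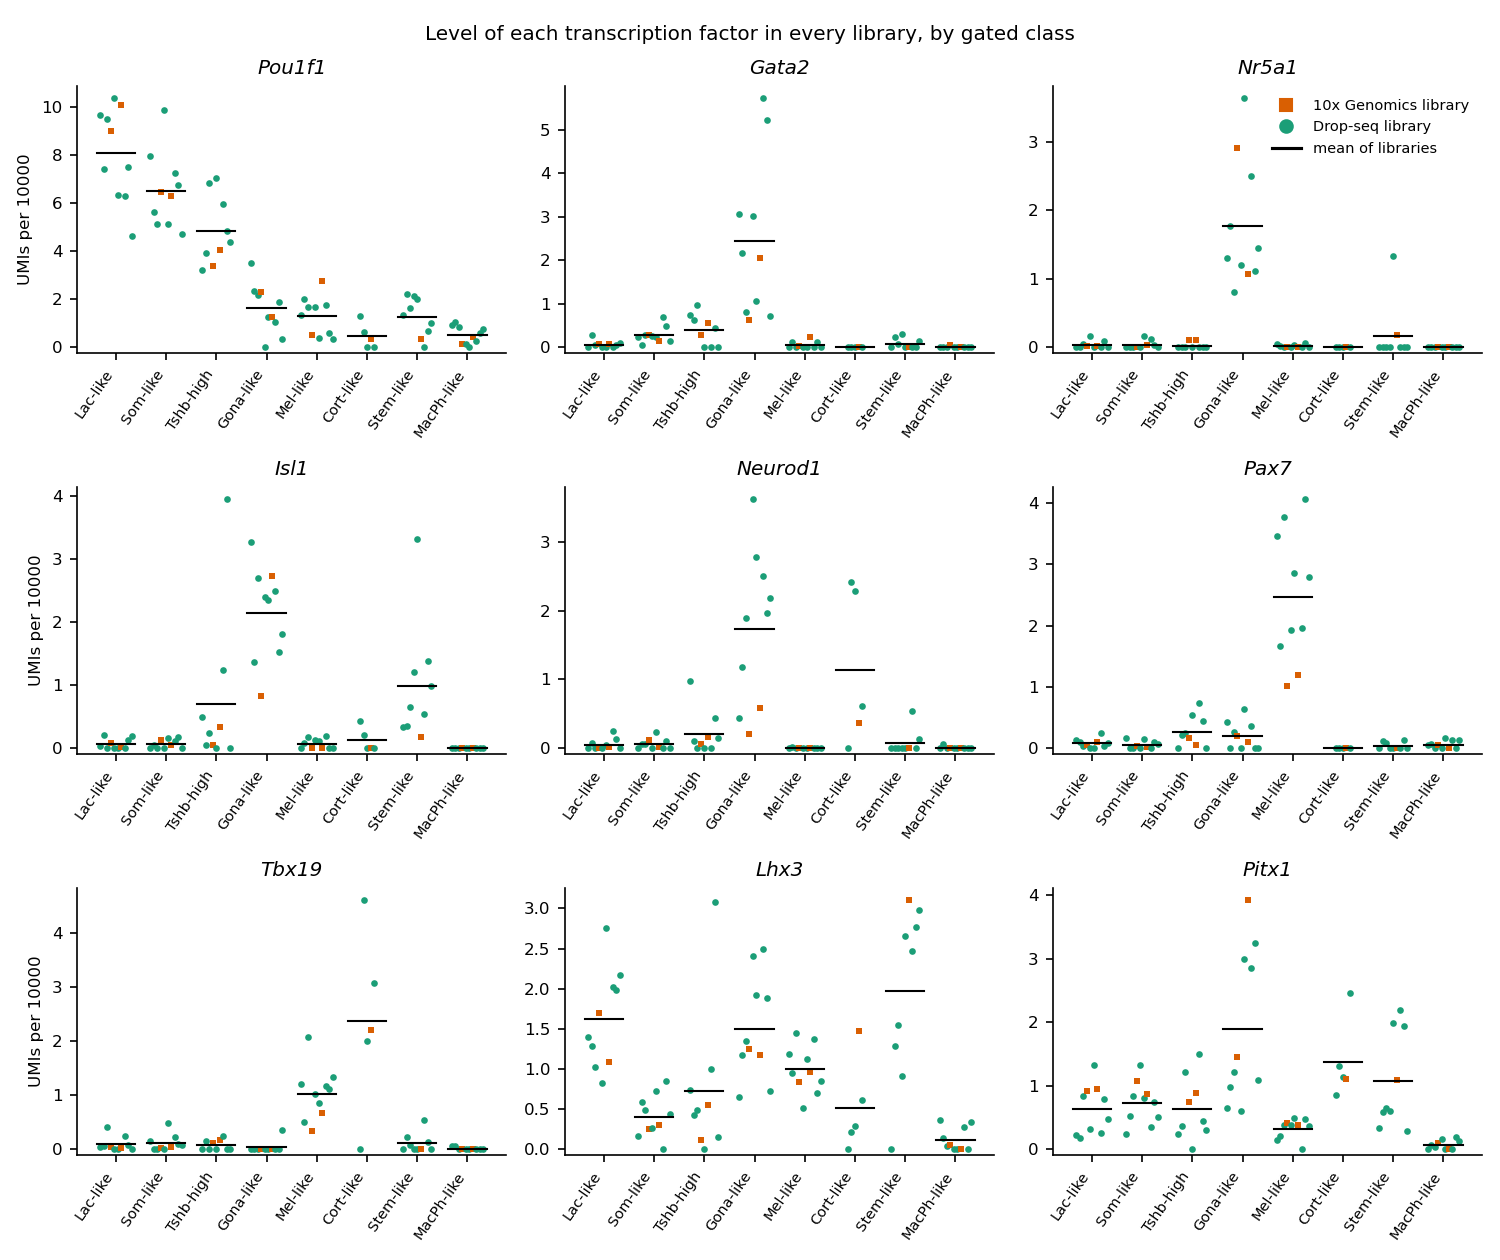
UMIs per 10000 of the 9 factors in 8 gated classes, with 1 point for each library with at least 10 barcodes of the class (squares 10x Genomics, circles Drop-seq) and a line at the mean. Gona-like points of Nr5a1 lie between 0.809 and 3.63 and Mel-like points of Pax7 between 1.01 and 4.05.

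In the Gona-like barcodes Nr5a1, Neurod1, Isl1, Gata2 and Pitx1 were all higher than the mean of the other hormone classes of the fit, which left out Cort-like barcodes. Cort-like barcodes came next in mean for 2 of these factors, within the SDs. Neurod1 stood at 1.73 ± 1.11 (n = 10) UMIs per 10000 in Gona-like and 1.14 ± 1.13 (n = 5) in Cort-like barcodes. Pitx1 stood at 1.90 ± 1.22 (n = 10) and 1.38 ± 0.627 (n = 5). Nr5a1, the nuclear receptor of gonadotropes, ran from 0.809 over 1.38 to 3.63 UMIs per 10000 in Gona-like barcodes and did not exceed 0.164 in any library of Lac-like, Som-like, Mel-like or Tshb-high barcodes. Gona-like was its highest class in 10 of 10 libraries. The log2 fold change was 4.94, SE 0.35, adjusted p = 2.71e-27 (quasi-likelihood test). No Nr5a1 UMI was found in the 1046 MacPh-like barcodes, which allows a share of up to 0.287%, and the pooled Gona-like level was at least 64.2-fold higher than 3 UMIs over all MacPh-like barcodes would give. It was found in 20.2 ± 10.7% of Gona-like barcodes at a median of 1167.5 UMIs, or 7.11% after thinning to 300 UMIs. Lac-like barcodes were called below the mean of the others, Gona-like included (-1.80, SE 0.58, adjusted p = 0.0264), but at 0.0345 ± 0.0538 (n = 10) they lay within 1 SD of the mean levels of Mel-like (0.0175 ± 0.0247, n = 10), Som-like (0.0348 ± 0.0575, n = 10) and Tshb-high barcodes (0.0250 ± 0.0497, n = 9). The call rested on 7 UMIs and was lost under 7 alternatives, among them Drop-seq alone (0.967) and the counts without replicate 1 (0.181) or 3 (0.129) of the 8-week females, male replicate 1 (0.110) or lactating replicate 1 (0.0692).

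Isl1 ran from 0.830 over 2.38 to 3.27 UMIs per 10000 in Gona-like barcodes, while no library of Lac-like, Som-like or Mel-like barcodes passed 0.215. Gona-like barcodes did not overlap with these classes, and were the highest class in 8 of 10 libraries. Tshb-high barcodes were the highest in 1 library and Stem-like ones in 1. Against the mean of the other hormone classes, Tshb-high included, the log2 fold change was 3.67, SE 0.31, adjusted p = 1.82e-21 (quasi-likelihood test). Stem-like barcodes came next with 0.997 ± 0.964 (n = 9), ahead of Tshb-high with 0.708 ± 1.28 (n = 9), and Gona-like was above Stem-like in 8 of 9 libraries. Isl1 had no UMI in MacPh-like barcodes, so that the pooled Gona-like level was at least 85.8-fold higher than 3 UMIs there would give. In Lac-like (22 UMIs) and Som-like barcodes (16 UMIs) Isl1 was called below the mean of the other classes, Gona-like included (-1.46, SE 0.41, adjusted p = 0.00862, and -1.62, SE 0.44, adjusted p = 0.00575), while the mean levels of Lac-like (0.0697 ± 0.0827, n = 10), Som-like (0.0693 ± 0.0709, n = 10) and Mel-like barcodes (0.0713 ± 0.0817, n = 10) lay within 1 SD of each other. Both of these calls were lost when the gates needed 1 more marker (adjusted p = 0.0879 and 0.588), and the Lac-like one without WT 8wk female replicate 3 (0.0535).

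Gata2, which takes part in gonadotropes and thyrotropes, ran from 0.622 over 2.11 to 5.71 UMIs per 10000 in Gona-like barcodes and from 0.0590 over 0.256 to 0.702 in Som-like ones. These ranges overlapped only between 0.622 and 0.702, and Gona-like was the highest class in 9 of 10 libraries. The log2 fold change was 3.08, SE 0.29, adjusted p = 2.23e-18. Gata2 was below the mean of the other classes in Lac-like (-2.03, SE 0.37, adjusted p = 1.21e-05) and Mel-like barcodes (-2.10, SE 0.41, adjusted p = 2.23e-05), where it had 22 and 14 UMIs over the 10 libraries. A UMI of Gata2 was found in 22.7 ± 16.5% of Gona-like and 0.139 ± 0.439% of MacPh-like barcodes.

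Neurod1 ran from 0.207 over 1.93 to 3.61 UMIs per 10000 in Gona-like barcodes (log2 fold change 4.03, SE 0.36, adjusted p = 5.23e-19, quasi-likelihood test). The lowest 3 values were those of the 10x Genomics libraries and of lactating replicate 1. The mean was 0.397 ± 0.268 (n = 2) in the 10x Genomics libraries and 2.07 ± 0.970 (n = 8) by Drop-seq.

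Pitx1 was detected in every hormone class and ran from 0.602 over 1.33 to 3.91 UMIs per 10000 in Gona-like barcodes (1.29, SE 0.22, adjusted p = 2.26e-06). Its Gona-like range overlapped with that of Lac-like (0.179 to 1.33) and Som-like barcodes (0.246 to 1.33), although Gona-like was above Lac-like in 10 of 10 libraries.

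Gona-like and Tshb-high barcodes, whose hormones share the subunit Cga, differed in 6 of the 9 factors, with 5 higher and 1 lower in Gona-like barcodes against 17.3% of all genes called (7.99% higher and 9.35% lower). Nr5a1 had the largest fold change (4.13, SE 0.59, adjusted p = 1.47e-08), followed by Isl1 (1.999, SE 0.42, adjusted p = 1.39e-04), Neurod1 (1.999, SE 0.51, adjusted p = 0.00207) and Gata2 (1.59, SE 0.38, adjusted p = 9.15e-04). Pitx1 was also higher (0.94, SE 0.31, adjusted p = 0.0224), and Pou1f1 was lower (-1.63, SE 0.25, adjusted p = 1.43e-07). The Pitx1 call was lost with Drop-seq alone (adjusted p = 0.142) and without WT 8wk male replicate 1 (0.154) or replicate 3 (0.136), and the Gata2 call when the gates needed 1 more marker (0.175).

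The calls of Gata2, Isl1 and Neurod1 in Tshb-high barcodes against the mean of the other classes were less stable. Gata2 stood at 0.403 ± 0.356 (n = 9) UMIs per 10000, Isl1 at 0.708 ± 1.28 (n = 9) and Neurod1 at 0.211 ± 0.321 (n = 9), each with at least 2 libraries at 0. The log2 fold changes were 1.10, SE 0.37, adjusted p = 0.0180 for Gata2, 1.17, SE 0.43, adjusted p = 0.0336 for Isl1 and 1.53, SE 0.53, adjusted p = 0.0228 for Neurod1 (quasi-likelihood test). None of these 3 passed with Drop-seq alone. Isl1 rested on WT 8wk male replicate 3, whose 13 barcodes held 9 of the 25 Isl1 UMIs: without that library the log2 fold change was 0.54 (adjusted p = 0.438). Its call was also lost without male replicate 1 (0.0882) or replicate 2 (0.0822). Gata2 lost its call without male replicate 1 (0.0641) or the virgin library (0.0679), and Neurod1 without male replicate 1 (0.0882) or lactating replicate 1 (0.204). Fshb, a hormone subunit of gonadotropes, stood at 3.95 to 5.75 UMIs per 10000 in the Tshb-high barcodes of the 3 male libraries and at 0 to 0.492 in those of the female libraries, and its part in the Isl1 and Gata2 levels of this class was not tested.

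**Figure D3:**
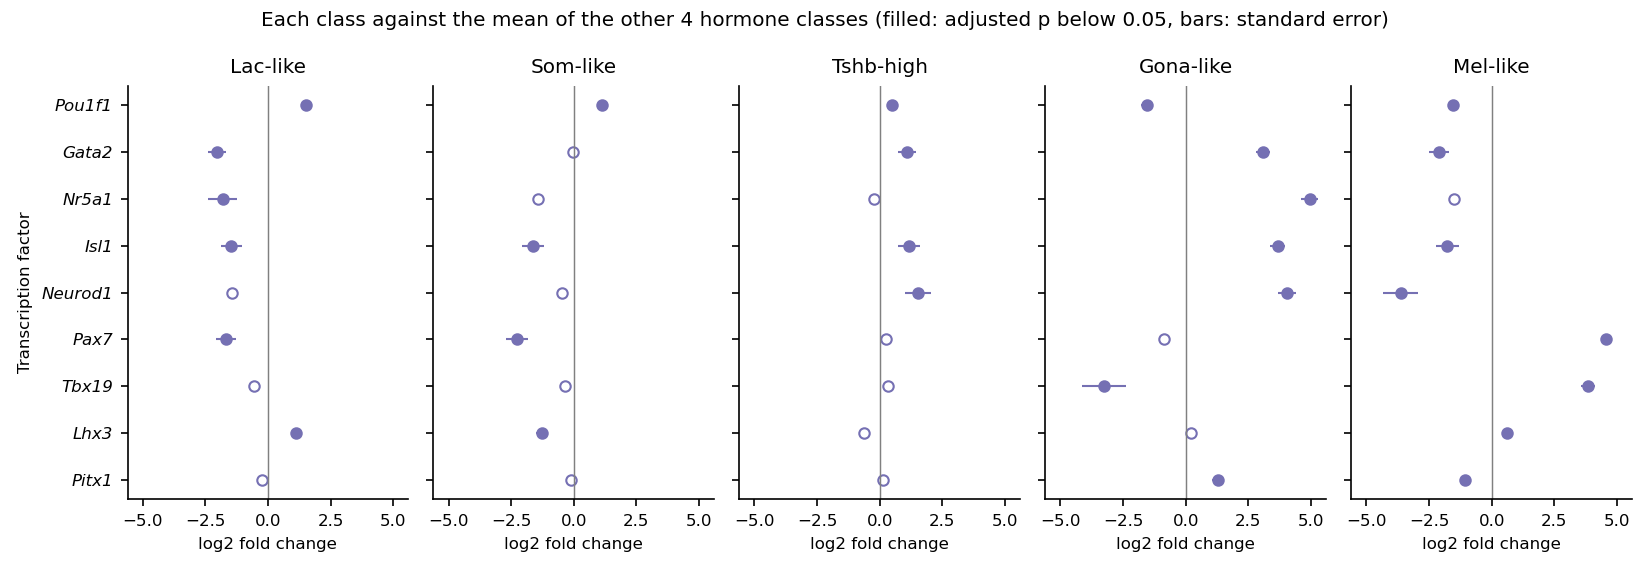
Fitted log2 fold change of each factor in 5 hormone classes against the mean of the other 4, filled with bars of 1 SE where the adjusted p is below 0.05 and open where it is not. The estimates for Neurod1 in Mel-like and Tbx19 in Gona-like barcodes each rest on 1 UMI in the class, and the highest value is that of Nr5a1 in Gona-like barcodes (4.94).

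The Mel-like barcodes were high in Pax7 and Tbx19. Pax7, the selector of the intermediate lobe, ran from 1.01 over 2.38 to 4.05 UMIs per 10000 in Mel-like barcodes and reached at most 0.747 in any library of Lac-like, Som-like, Gona-like or Tshb-high barcodes. The groups did not overlap, Mel-like was the highest class in 10 of 10 libraries, and the log2 fold change was 4.57, SE 0.21, adjusted p = 2.22e-48 (quasi-likelihood test). The mean was 1.10 ± 0.133 (n = 2) in the 10x Genomics libraries and 2.81 ± 0.900 (n = 8) by Drop-seq. Pax7 was found in 24.1 ± 7.30% of Mel-like barcodes at a median of 1210 UMIs, or in 6.90% after thinning to 300 UMIs, against 0.757 ± 0.766% and 0.271% of MacPh-like barcodes. Lac-like (19 UMIs) and Som-like barcodes (10 UMIs) were called below the mean of the others, Mel-like included (-1.68, SE 0.40, adjusted p = 0.00117, and -2.27, SE 0.44, adjusted p = 3.31e-05). These calls were lost when the gates needed 1 more marker (adjusted p = 0.212 and 0.0788) and when the 5% of barcodes with the most UMIs were left out (0.196 and 0.266).

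Tbx19 ran from 0.336 over 1.07 to 2.07 UMIs per 10000 in Mel-like barcodes and from 0 over 0.0471 to 0.417 in Lac-like ones, with an overlap between 0.336 and 0.417. Its highest value in a Som-like library was 0.481. The log2 fold change in Mel-like barcodes was 3.84, SE 0.29, adjusted p = 5.03e-25. Gona-like barcodes held 1 Tbx19 UMI among 406 barcodes, a share of 0.246% with an exact 95% interval of 0.00624% to 1.36%. Tbx19 was called lower there (adjusted p = 0.00695), and this call was lost with Drop-seq alone (0.0555) and without the 5% of barcodes with the most UMIs (0.144).

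Neurod1 had 1 UMI in the 1484 Mel-like barcodes, a share of 0.0674% (exact 95% interval 0.00171% to 0.375%, counting error only), and was called lower there (adjusted p = 1.69e-05). Isl1 (-1.77, SE 0.46, adjusted p = 0.00285) and Pitx1 (-1.05, SE 0.23, adjusted p = 2.01e-04) were lower in Mel-like barcodes as well.

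Corticotropes and melanotropes both make Pomc. A single library reached 20 Cort-like barcodes, so these entered a fit with sums of at least 5 barcodes that was added after the data were seen. Over the libraries with at least 10 Cort-like barcodes, Tbx19 stood at 2.38 ± 1.68 (n = 5) UMIs per 10000, Pitx1 at 1.38 ± 0.627 (n = 5) and Neurod1 at 1.14 ± 1.13 (n = 5), while Pou1f1 stood at 0.464 ± 0.540 (n = 5), near its MacPh-like level. Gata2, Nr5a1 and Pax7 had 0 UMIs in the 115 Cort-like barcodes, which allows a share of up to 2.61% for each. In the added fit 2 of the 9 factors were called higher and 4 lower, against 29.6% of all genes called (4.66% higher and 25% lower). The Cort-like sums held 4546 to 45613 UMIs a library, and their scaling moved all genes: the median log2 fold change of all genes was -0.81 with TMM, -0.88 with TMMwsp (a form of TMM for sparse counts), -0.12 with RLE and 0.11 with library totals alone. All called genes split into 466 and 2501 (higher and lower) with TMM, 418 and 2895 with TMMwsp, 1110 and 520 with RLE and 1432 and 304 with library totals. Under all 4 scalings Tbx19 was higher (3.43, SE 0.35, adjusted p = 9.64e-17 with TMM, 3.34 to 4.45 over the 4), as was Neurod1 (2.44, SE 0.44, adjusted p = 2.69e-06 with TMM, 2.34 to 3.28 over the 4). Pou1f1 was lower under all 4 (-3.95, SE 0.39, adjusted p = 2.43e-17 with TMM, -4.01 to -3.01 over the 4), as were, at 0 UMIs, Gata2 (adjusted p = 0.00176 with TMM and at most 0.0358) and Pax7 (0.00443 and at most 0.0499). Lhx3 was called lower with TMM (-1.71, SE 0.42, adjusted p = 8.74e-04) and TMMwsp and not with RLE (-1.02, SE 0.46, adjusted p = 0.118) or library totals (-0.79, SE 0.47, adjusted p = 0.262).

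Mel-like and Cort-like barcodes differed in Pax7, Neurod1 and Pou1f1 under all 4 scalings, and in Lhx3, Tbx19 and Pitx1 under some of them. With TMM 4 of the 9 factors were called, 3 higher and 1 lower in Mel-like barcodes, against 33.5% of all genes (28.9% higher and 4.7% lower). The median of all genes was 0.92 with TMM, 1.04 with TMMwsp, 0.10 with RLE and -0.22 with library totals, and all called genes split into 2888 and 470, 3404 and 417, 667 and 1220 and 375 and 1678 (higher and lower), in that order. The pooled Pax7 level of Mel-like barcodes, 2.42 UMIs per 10000 from 501 UMIs, was at least 16.0-fold higher than 3 UMIs in all Cort-like barcodes would give. Neurod1 was lower in Mel-like barcodes (adjusted p at most 4.82e-10 over the 4 scalings, quasi-likelihood test), and Pou1f1 was higher (2.70, SE 0.47, adjusted p = 9.50e-07 with TMM, 1.53 to 2.81 over the 4). The mean Pou1f1 levels, 1.31 in Mel-like and 0.464 in Cort-like barcodes, were below the 1.94 of Stromal-like barcodes. Gh was also higher in Mel-like than in Cort-like barcodes (565 ± 410 against 248 ± 220 UMIs per 10000), as was Prl (261 ± 250 against 130 ± 127). The part of free RNA in the Pou1f1 difference was not tested. Lhx3 was called higher with TMM (2.13, SE 0.43, adjusted p = 3.18e-05), TMMwsp and RLE (1.29, SE 0.47, adjusted p = 0.0379), and not with library totals (0.98, SE 0.49, adjusted p = 0.149). Tbx19 was above its Mel-like level in the Cort-like barcodes of 4 of 5 libraries, and Pitx1 (0.325 ± 0.156 (n = 10) in Mel-like barcodes) in 5 of 5. With TMM neither Tbx19 (-0.41, SE 0.31, adjusted p = 0.300) nor Pitx1 (-0.32, SE 0.42, adjusted p = 0.569) was called between them, and neither was with TMMwsp. With RLE Mel-like barcodes were lower in Tbx19 (-1.30, SE 0.32, adjusted p = 7.95e-04) and in Pitx1 (-1.13, SE 0.43, adjusted p = 0.0478), and with library totals as well (-1.62, SE 0.32, adjusted p = 1.72e-05, and -1.49, SE 0.44, adjusted p = 0.00665).

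Levels in the classes where a factor was low were set against MacPh-like barcodes, taken as a measure of free RNA, in a fit with more classes that was also added after the data were seen. MacPh-like barcodes held less of the hormones than Stromal-like barcodes, which should make none either. Stromal-like barcodes had 1152 ± 576 UMIs per 10000 of Gh, and their Pou1f1 level (1.94 ± 1.28, n = 10) was above that of Gona-like barcodes in 7 of 10 libraries and above that of Mel-like ones in 7 of 10. A call above MacPh-like barcodes is thus not one above every such class. None of the 9 factors was called below the MacPh-like level in a class of this fit. In Lac-like barcodes 6 were called above it (all genes 38% higher), in Som-like 8 (37%), in Gona-like 7 (26.5%), in Mel-like 7 (36%), in Tshb-high 9 (18.1%), in Mult-like 8 (13.7%) and in Mki67+-like barcodes 5 (19.3%). Tshb-high barcodes, gated on a count of Tshb UMIs, had library medians of 832 to 4811.5 UMIs, against 666.5 to 1781 in MacPh-like barcodes. The part of this depth in the calls was not tested. With RLE scaling Neurod1 (adjusted p = 0.0579) and Nr5a1 (0.0634) lost their call in Som-like and Gata2 (0.0591) in Mel-like barcodes, and the other calls held. In Stem-like barcodes 3 factors were called above MacPh-like barcodes, against 14.7% of all genes higher. They were Isl1 (MacPh-like at 0 UMIs, adjusted p = 7.91e-10), Pitx1 (3.32, SE 0.51, adjusted p = 5.60e-09) and Lhx3 (3.26, SE 0.39, adjusted p = 1.53e-13). Pou1f1 in Stem-like barcodes was not called (0.77, SE 0.35, adjusted p = 0.0877), whereas it was in Mki67+-like (3.21, SE 0.31, adjusted p = 4.32e-19), Mult-like (2.42, SE 0.29, adjusted p = 1.03e-13), Gona-like (1.26, SE 0.31, adjusted p = 2.84e-04) and Mel-like barcodes (1.28, SE 0.27, adjusted p = 1.57e-05). Pax7 was not called above the MacPh-like level in Lac-like (0.27, SE 0.62, adjusted p = 0.714), Som-like (-0.15, SE 0.65, adjusted p = 0.854) or Gona-like barcodes (0.95, SE 0.71, adjusted p = 0.263).

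Not all UMIs of a factor lay in a class. The 9 factors had between 173 (Nr5a1) and 11902 (Pou1f1) UMIs over all kept barcodes. Of these, 57.3% of the Pou1f1 UMIs and 30.9% of the Pax7 UMIs fell in barcodes with no class. Mel-like barcodes held 57.9% of all Pax7 UMIs in 6.33% of the kept barcodes, and Gona-like barcodes held 51.4% of all Nr5a1 UMIs in 1.73% of them.

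**Figure D4:**
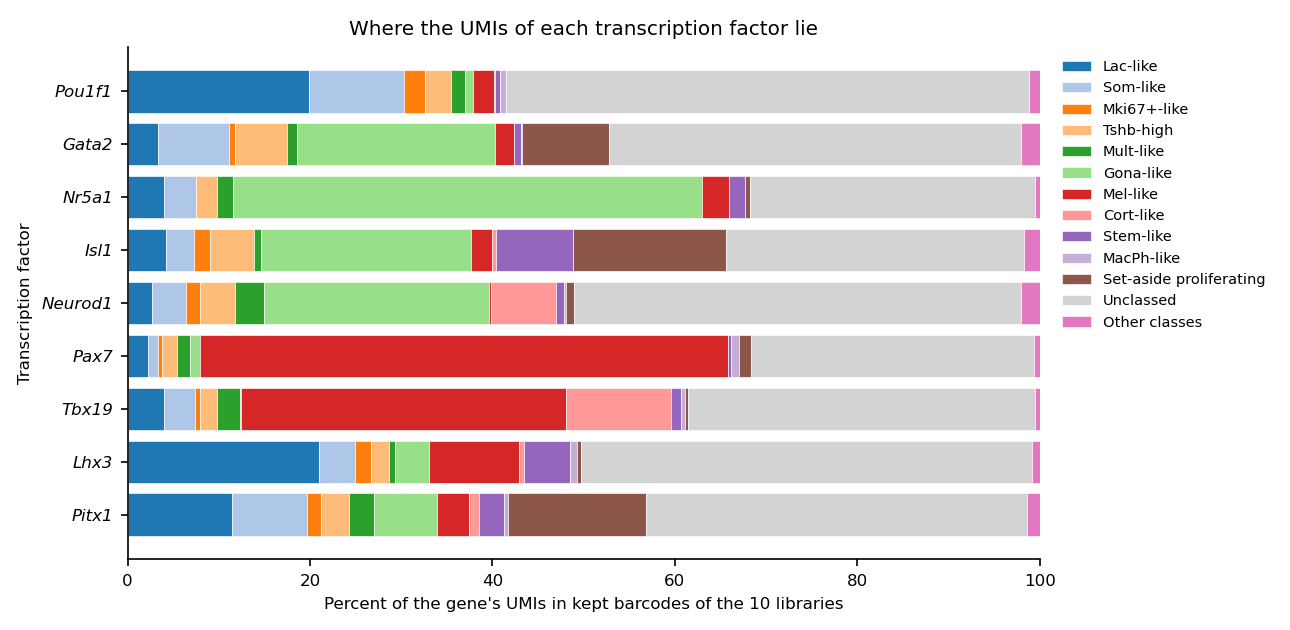
Share in percent of each factor's UMIs over all kept barcodes that fell in each cell class, as stacked bars that sum to 100. The Mel-like share is the largest for Pax7 (57.9%) and the Gona-like share for Nr5a1 (51.4%), and barcodes with no class hold 57.3% of the Pou1f1 UMIs.

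Several pairs of factors were found in the same barcode more often than the product of their shares gives, taken within each library and summed over libraries, and others were not. This is a description only, since barcodes with more UMIs show more of every gene. In Mel-like barcodes (n = 1484) Tbx19 and Pax7 met in 60 against 41.2 by that product, and Lhx3 and Pax7 in 62 against 43.3. In Gona-like barcodes (n = 406) Isl1 and Neurod1 met in 25 against 14.6, Isl1 and Nr5a1 in 24 against 16.7, and Pitx1 and Gata2 in 33 against 26.9. Pitx1 and Neurod1 (13 against 16.1), Pitx1 and Nr5a1 (19 against 20.2) and Pou1f1 and Isl1 (10 against 12.0) met less often than that product in the same barcodes. In Stem-like barcodes (n = 306) Pitx1 and Lhx3 met in 20 against 10.7 and Lhx3 and Isl1 in 14 against 7.28. In Lac-like barcodes (n = 2045) Pou1f1 and Lhx3 met in 233 against 218. Across all 23432 kept barcodes Pou1f1 met less often than the product of shares with Pax7 (113 against 205), Tbx19 (70 against 128) and Isl1 (82 against 134).

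The genes whose levels ran most like each factor over 26 class and platform means were found among 11904 genes by Pearson's r, again as a description, since the means of a platform share their libraries and depth. Several of the genes were sparse, with 51 to 72 UMIs for those of Tbx19 and Nr5a1 and for Adcyap1r1. Pou1f1 was followed by Sez6 (r = 0.83), the retinoid receptor gene Rxrg (0.81) and Sec16b (0.81), and Pitx1 by Mapk8ip1 (0.93), the synaptic vesicle gene Syp (0.90) and Enah (0.88). Lhx3 was followed by Ralgapa1 (0.87), Tmem138 (0.86) and Hap1 (0.84). Isl1 went with the PACAP receptor gene Adcyap1r1 (0.83), D430019H16Rik (0.82) and Nr5a1 (0.82). Gata2 went with Col20a1 (0.83), Tgfbr3l (0.83) and 1810064F22Rik (0.81), and Nr5a1 with 1810064F22Rik (0.95), the bHLH gene Nhlh2 (0.88) and Gm16485 (0.84). Tbx19 went with Il22 (0.92), Egfem1 (0.91) and Elovl4 (0.91). Pax7 went with the GDNF family receptor gene Gfra4 (0.95), Ttn (0.90) and Nwd2 (0.89), and Neurod1 with the synapsin gene Syn2 (0.84), Ankrd45 (0.75) and Tub (0.75).

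Of 30 other transcription factors of the pituitary, 23 had enough UMIs to be tested in the same fits, and the log2 fold changes of some of the largest called ones are given for each class. In Lac-like barcodes 9 were higher and 2 lower (median 0.56, against 0.15 over all genes), with the thyroid hormone receptor gene Thrb (1.84), Tle4 (1.59) and Six6 (1.49) higher and the glucocorticoid receptor gene Nr3c1 (-1.22) and Eya1 (-0.98) lower. In Som-like barcodes 4 were higher and 9 lower (median -0.37, all genes 0.13), with Rxrg (1.84) and Nr3c1 (1.76) higher and Etv1 (-1.96), Nr4a1 (-1.52) and Six6 (-1.35) lower. In Gona-like barcodes 5 were higher and 8 lower (median -0.67, all genes -0.17), with Eya1 (3.06) and Hes6 (1.72) higher and Nr4a2 (-1.71), Six6 (-1.68), Egr1 (-1.55) and Rxrg (-1.51) lower. In Mel-like barcodes 7 were higher and 5 lower (median -0.19, all genes 0.11), with Etv1 (4.04), Nr4a2 (2.75), Six3 (2.12) and Nr4a1 (1.94) higher and the estrogen receptor gene Esr1 (-1.54) lower. In Tshb-high barcodes 2 were higher and 4 lower (median -0.13, all genes -0.23), with Rxrg (1.58) and Six6 (0.90) higher and Myt1l (-1.12), Nr4a2 (-1.01), Hes6 (-0.95) and Zbtb20 (-0.53) lower. Under RLE scaling the counts were 6 and 4 in Lac-like, 3 and 10 in Som-like, 5 and 3 in Gona-like, 7 and 6 in Mel-like and 5 and 1 in Tshb-high barcodes.

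The study also set males against females, lactating against virgin females and mt/hGRF against WT females, and here the library was the unit. In all kept barcodes a lower level of a factor can mean fewer cells of a type or less RNA per cell, which cannot be told apart. Fits used all libraries with enough barcodes and the platform as a term, and the single virgin and mt/hGRF libraries were taken to vary like the other groups. In each contrast 29 tests of a factor could be made over all kept barcodes and 5 classes. For sex 1 was called, against 0.626% of all genes called in Gona-like barcodes, where it lay, and 5 of the 29 tests (17.2%) had an unadjusted p under 0.05 against 3.86% of the tests of all genes in these 6 sets of barcodes. Of all genes, sex called 0.0856% over all kept, 0.381% in Lac-like, 0.122% in Som-like, 0.0573% in Mel-like and 0.0402% in MacPh-like barcodes. Under the alternatives the genes called for sex moved from 31 to between 2 and 63 in Lac-like and from 19 to between 0 and 50 in Gona-like barcodes. In Som-like barcodes they moved from 9 to between 5 and 13. For lactation edgeR called 0 factors and 0% of all genes over all kept barcodes, with 4 of the 29 tests (13.8%) under an unadjusted p of 0.05 against 4.51% of those of all genes, and DESeq2 called 0. In the classes lactation called 0.0369% of all genes in Lac-like, 0.0136% in Som-like, 0.033% in Gona-like, 0.0143% in Mel-like and 0.221% in MacPh-like barcodes. For the transgene edgeR called 0 factors, against 0.0499% of all genes over all kept, 0.947% in Lac-like, 0.0949% in Som-like, 0.132% in Gona-like, 0% in Mel-like and 0.161% in MacPh-like barcodes, with 2 of the 29 tests (6.90%) under an unadjusted p of 0.05 against 7.70% of those of all genes, and DESeq2 called 0. In simulated counts over all kept barcodes, 52.5% of genes changed 4-fold were recovered for lactation and 76% for sex, and in Lac-like barcodes 30.5% and 68.5%. Of the calls made there, 8.7% and 3.8% were false over all kept barcodes and 1.61% and 1.44% in Lac-like ones. The changed genes were drawn from all genes tested, so these values do not give the recovery at the levels of the 9 factors.

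**Figure D5:**
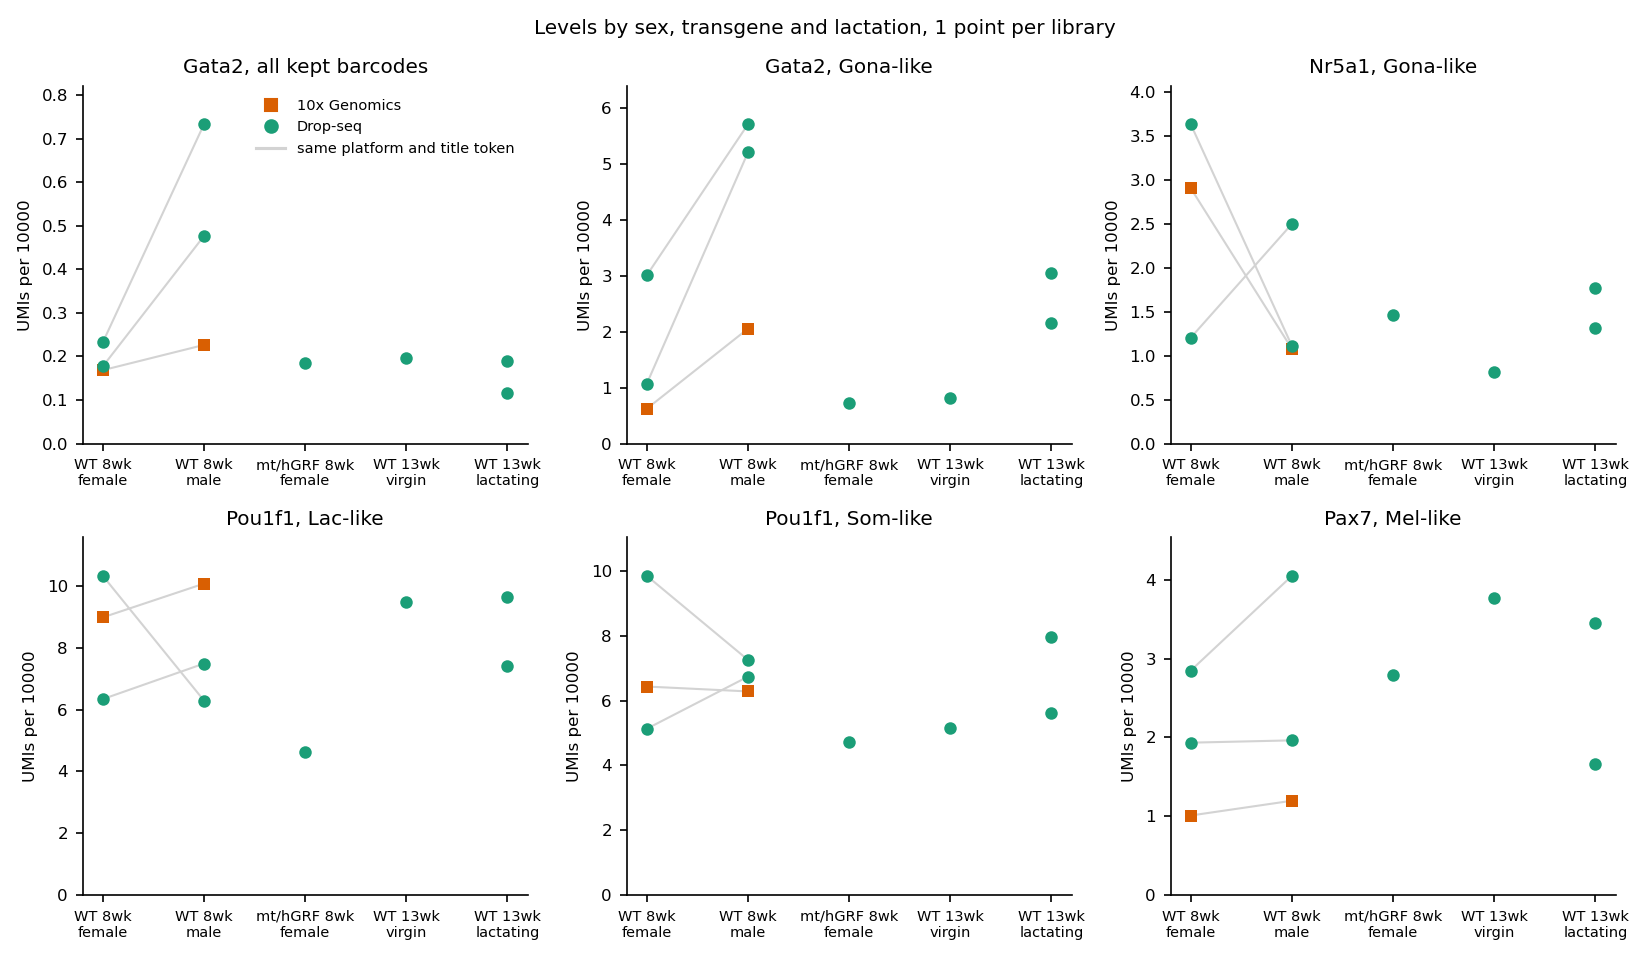
UMIs per 10000 in each library (1 point each, squares 10x Genomics, circles Drop-seq) by group, for Gata2, Nr5a1, Pou1f1 and Pax7 in the barcodes named above each panel, with grey lines between same-numbered female and male libraries. Gata2 in Gona-like barcodes stands at 2.05 to 5.71 in the males and 0.622 to 3.01 in the 8-week WT females.

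Gata2 in Gona-like barcodes was the factor called between the sexes. The 8-week WT females stood at 0.622, 3.01 and 1.07 UMIs per 10000 and the males at 2.05, 5.71 and 5.21, in the order of replicates 1, 2 and 3. Males were higher in each of the 3 pairs, but the groups overlapped, since female replicate 2 lay above male replicate 1. Replicate 2 of each sex had 17 and 19 Gona-like barcodes and stayed out of the fit, which gave a log2 fold change of 2.10, SE 0.56, adjusted p = 0.0255 (edgeR quasi-likelihood test). A UMI of Gata2 was found in 9.68%, 17.6% and 10.7% of female and 29.8%, 57.9% and 38.8% of male Gona-like barcodes. The median depth of these barcodes was also higher in the males of each pair, with 1789, 1238 and 1286.5 UMIs against 1416, 996 and 1113, and its part in the result was not tested. The 13-week females spanned much of that range, at 0.809 in the virgin and 3.05 and 2.16 in the lactating libraries, and the mt/hGRF library stood at 0.728.

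The Gata2 call was not stable. DESeq2 gave a log2 fold change of 2.02 with an adjusted p of 0.9994, and the call was also lost without a filter on low counts (adjusted p = 1.00), without the 5% of barcodes with the most UMIs (0.0858) and with Drop-seq alone (0.143). It was lost without WT 8wk female replicate 1 (0.173) or replicate 3 (0.988), without WT 8wk male replicate 1 (0.153) or replicate 3 (0.993) and without lactating replicate 1 (0.0502). When the gates needed 1 more marker Gata2 was not tested. In the WT 8-week libraries alone, of which only replicates 1 and 3 of each sex entered, the adjusted p was 0.0260 (edgeR quasi-likelihood test). There the platform term and the replicate block are the same term, so the block gave the same value and is no second check.

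Over all kept barcodes, Gata2 stood at 0.168, 0.177 and 0.232 UMIs per 10000 in the females and at 0.226, 0.476 and 0.733 in the males. The male was higher in each pair, and the groups overlapped only by male replicate 1 and female replicate 3. Gona-like barcodes, where Gata2 was highest, made up 1.80%, 1.74% and 1.89% of the kept barcodes of the females and 2.66%, 1.93% and 3.81% of those of the males, and the part of these shares in the difference was not tested. The log2 fold change was 1.26, SE 0.29, adjusted p = 0.347 by the quasi-likelihood test. With the 6 WT 8-week libraries alone the adjusted p was 0.330, and with the replicate number as a block in these 6 libraries it was 0.0260. The number of all genes called was 12 with all libraries, 8 with the 6 alone and 32 with the block. The 252 proliferating barcodes rich in ribosomal pseudogenes made up 5.26%, 1.63% and 1.95% of the kept barcodes of male replicates 1, 2 and 3 and 2.49%, 0.102% and 3.78% of those of the females. They held 2100729, 46071 and 79046 of the 5080590, 986421 and 2142136 UMIs of the males. In the females they held 930594, 988 and 127026 of 3920089, 960289 and 1723609 UMIs. Without these barcodes the log2 fold change of Gata2 was 1.29, SE 0.29, adjusted p = 0.328 (quasi-likelihood test).

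Nr5a1, the other gonadotrope factor, stood at 2.90, 1.20 and 3.63 UMIs per 10000 in female and 1.08, 2.4996 and 1.11 in male Gona-like barcodes. The groups overlapped and the male was lower in 2 of 3 pairs (log2 fold change -1.50, SE 0.51, adjusted p = 0.224). Without the 5% of barcodes with the most UMIs Nr5a1 was called (-2.05, adjusted p = 0.0298).

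Pou1f1 did not pass in any contrast. In Lac-like barcodes it stood at 8.99, 10.3 and 6.34 UMIs per 10000 in 8-week WT females, 10.1, 6.30 and 7.49 in males, 9.50 in the virgin, 9.65 and 7.42 in the lactating and 4.63 in the mt/hGRF library. The mt/hGRF value was the lowest of the 10 libraries, and its log2 difference from WT females was -0.51, SE 0.51, adjusted p = 0.804. In Som-like barcodes Pou1f1 stood at 4.73 in the mt/hGRF library and 6.43, 9.85 and 5.13 in the WT females (-0.31, SE 0.45, adjusted p = 0.883). The mt/hGRF library was again the lowest of the 10. In MacPh-like barcodes Pou1f1 stood at 0.753 in the mt/hGRF library against 0.159, 0.156 and 0 in the WT females (2.63, SE 1.01, adjusted p = 0.567).

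In lactation Pitx1 in Lac-like barcodes had the lowest unadjusted p of the 29 tests (0.00505). Over all kept barcodes it stood at 0.302 and 0.334 UMIs per 10000 in the lactating libraries and 0.775 in the virgin one (log2 fold change -1.04, SE 0.37, adjusted p = 0.9995 by the quasi-likelihood test). In Lac-like barcodes it stood at 0.226 and 0.179 against 0.834 (-1.91, SE 0.68, adjusted p = 0.426). Both lactating libraries lay below the virgin library in each case, with a single virgin library to compare. Tbx19 in Mel-like barcodes stood at 1.22 and 0.498 against 2.07 (-1.12, SE 0.52, adjusted p = 0.9996) and Pax7 at 3.46 and 1.67 against 3.77 (-0.40, SE 0.52, adjusted p = 0.9996). Gata2 in Gona-like barcodes was higher in both lactating libraries, at 3.05 and 2.16 against 0.809 in the virgin library (1.75, SE 0.71, adjusted p = 0.600).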

How the data were processed

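Pituitaries of CD1 mice were dissociated without enzymes and sequenced as single cells on the 10x Genomics platform (2 libraries, Chromium 3' kit) or by Drop-seq (8 libraries). The deposited tables hold raw UMI counts per gene and barcode, which the authors made for Drop-seq by mapping to mm10 with STAR 2.5.2a and counting unique exonic reads by strand, with near-identical UMIs merged. For the 10x Genomics libraries the authors used Cell Ranger, whose version is not given in the sources used here. Counts come from the 3' ends of transcripts, so a factor's level does not tell its isoforms apart.

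Barcodes were kept with a mitochondrial share below 0.1 and at least 300 UMIs and 100 to 4000 genes (Drop-seq) or over 200 and under 3000 genes (10x Genomics). No doublet caller was run, and leaving out the 5% of kept barcodes with the most UMIs in each library was an alternative. This limit was set over all classes together, so a class of high depth could lose more than 5%. It left 7 Tshb-high sums in the class fit, against 9 without it. Classes were gated on marker genes other than the 9 factors, with 2 distinct markers required in most classes, and 252 proliferating barcodes rich in ribosomal pseudogenes were set aside from the classes. The members and lists were chosen with earlier results of these data known, and the gates were adjusted after their yields were seen, but not after the factors' levels were. Levels are shown for libraries with at least 10 barcodes of a class. Named were all 9 factors, the 3 genes most like each and the 6 other factors with the largest called change in a class, of which some are not reported here.

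UMIs were summed per library and class over at least 20 barcodes (10 for Tshb-high) and tested with edgeR 4.0.16 in R 4.3.3, by the quasi-likelihood test with Benjamini-Hochberg adjustment over all genes having at least 5 UMIs in 3 sums. The library was a block between classes and the platform a term between conditions. The fits between conditions had 4 residual degrees of freedom, and 2 in Gona-like barcodes. The 8-week female and male libraries were paired as replicate 1 (the only libraries on the 10x Genomics platform, with no number in their titles) and as replicates 2 and 3 (Drop-seq, each pair with a shared number in its titles). Paired libraries deviated together from the mean of their sex (correlation 0.456 to 0.896 over 12 class and pair values). In both sexes replicate 1 was on another platform than replicates 2 and 3, and other pairings were not computed. These values therefore cannot tell whether the shared numbers pair the libraries. The labels do not say what the shared numbers stand for. Nothing in the labels says that replicates came from separate dissections, so p-values measure the spread between these libraries. The code was tested on simulated data. Alternatives were DESeq2 1.42.0, RLE scaling (with TMMwsp and library totals for the fit with Cort-like, added after the data were seen), no filter on low counts, hormone genes left out, stricter or hormone-based gates, at least 500 UMIs, Drop-seq alone, the replicate block and leaving out each library. Exact 95% intervals and limits from a count of 0 (3 counts) cover counting error only. RefSeq promoters were found for 7 of the 9 factors (not for Pitx1 and Nr5a1).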

Additional observations from a re-analysis of the deposited data

Results flagged for a closer look

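The 252 proliferating barcodes rich in ribosomal pseudogenes, which were set aside from the classes and entered no comparison between them, held UMIs of some of the factors above the MacPh-like level and of others below it. They numbered 93 and 43 in the male and female 10x Genomics libraries, with medians of 23270.0 and 23337 UMIs, and 0 to 56 in the Drop-seq libraries. Pooled over libraries, Pitx1 stood at 0.859 UMIs per 10000 (283 UMIs), against 0.0664 in MacPh-like barcodes. Isl1 stood at 0.264 (87 UMIs) against 0 in MacPh-like barcodes, and Gata2 at 0.191 (63 UMIs) against 0.00830. These 3 values lie above 0.00911 UMIs per 10000, the limit that 3 UMIs in these barcodes give. Pou1f1 stood at 0.0304 (10 UMIs) against 0.606 in MacPh-like barcodes, Lhx3 at 0.0243 (8 UMIs) against 0.141 and Pax7 at 0.0364 (12 UMIs) against 0.0581, all below the MacPh-like level when pooled, and Nr5a1, Tbx19 and Neurod1 had 1 to 3 UMIs. These pooled values mix platforms, since the 10x Genomics libraries gave 92.0% of the UMIs of the set-aside barcodes and 23.7% of those of MacPh-like barcodes. Within the 10x Genomics libraries Pitx1 stood at 0.845 against 0.07 in MacPh-like barcodes (2 UMIs), Isl1 at 0.257 against 0, Gata2 at 0.198 against 0.0350 (1 UMI) and Pou1f1 at 0.0330 against 0.245 (7 UMIs). There Lhx3 stood at 0.0231 against 0.0350 (1 UMI) and Pax7 at 0.00990 against 0.0350 (1 UMI). The MacPh-like barcodes of the male and female 10x Genomics libraries had medians of 1411 and 1781 UMIs, far fewer than the set-aside ones. The part of this depth in values below the MacPh-like level was not tested. By Drop-seq Pax7 stood at 0.342 (9 UMIs) against 0.0653, above the MacPh-like level, so that the pooled direction of Pax7 did not hold there.

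Pitx1 was not called between the sexes in any class, but its values differed in opposite directions in Gona-like barcodes and in Som-like and Mel-like ones. The male minus female difference, as the mean of 3 pairs of 8-week WT libraries, was 1.66 UMIs per 10000 in Gona-like, -0.409 in Som-like and -0.147 in Mel-like barcodes, and each of the 3 pairs had the sign of its mean, with single pairs as close to 0 as -0.0176 in Mel-like and -0.0529 in Som-like barcodes. Among the factors, Pitx1 is listed because its pairs shared a sign within each of these classes, with opposite signs between classes. The agreement of the pairs is thus the rule of choice and not a separate result. Male replicate 2 stood at 0 UMIs per 10000 of Pitx1 in Mel-like barcodes, and female replicate 2 at 0.602 in its 17 Gona-like barcodes. The difference between classes was not tested. No group had 4 libraries, so single outlying libraries were not looked for.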

How the results depend on the processing

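No called value changed sign under any alternative. Of 1386 values of the factors between classes, 62 lost and 23 gained a call, and of 1619 values between conditions 9 lost and 2 gained a call. Factors called fell from 6 to 3 in Lac-like and from 4 to 2 in Som-like barcodes, both when the gates needed 1 more marker and with sums of at least 5 barcodes and Cort-like added. In Tshb-high barcodes 2 of 4 stayed called with 1 more marker, with hormones counted as markers or without the 5% of barcodes with the most UMIs, 0 with Drop-seq alone and 1 to 4 when a library was left out. Lac-like against Som-like kept 1 of 2 with 1 more marker. The single sex difference, in Gona-like barcodes, fell to 0 with DESeq2, without a filter on low counts, with 1 more marker and with Drop-seq alone, and stood at 0 to 1 when a library was left out. The WT 8-week libraries alone gave 1, from replicates 1 and 3 of each sex, which had enough Gona-like barcodes. With the replicate block they gave 2, with 1 over all kept barcodes (Gata2), where all 6 libraries entered. The block changed no other call. The cause of these changes was not tested, beyond fewer barcodes or libraries where the alternative itself left them out.

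Shares of barcodes with a UMI fell with the depth used, thinned to 300 UMIs, thinned to 500 UMIs or counted from at least 2 UMIs. They were 23.0%, 35.1% and 25.4% for Pou1f1 in Lac-like barcodes (65.5% with 1 more marker), 4.68%, 8.41% and 2.76% for Lhx3 in Lac-like, 6.76%, 10.6% and 4.69% for Isl1 and 7.11%, 9.46% and 4.05% for Nr5a1 in Gona-like, and 3.64%, 5.77% and 1.68% for Tbx19 and 6.90%, 11.7% and 7.16% for Pax7 in Mel-like barcodes. For Pitx1 and Neurod1 in Gona-like barcodes they were 5.39% and 5.30% at 300 UMIs and 4.18% and 4.41% for at least 2 UMIs.

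The number of all genes called moved more than 1.5-fold under some alternatives, from 1107 to between 375 and 1537 in Lac-like, from 993 to between 328 and 1644 in Som-like, from 813 to between 310 and 1028 in Gona-like, from 1374 to between 823 and 1667 in Mel-like and from 2357 to between 871 and 2525 in Tshb-high barcodes. For sex, lactation and the transgene over all kept barcodes it was 12, 0 and 7, with ranges of 5 to 32, 0 to 21 and 0 to 41. Leaving out the only virgin or mt/hGRF library gave no value for its contrast. In the fit with Cort-like, all genes called numbered 2967 for Cort-like against the others with TMM, 1630 with RLE and 1736 with library totals, and 3358, 1887 and 2053 for Mel-like against Cort-like.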
